A study of Mus musculus with 18 samples.

Results

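Claudins are the membrane-spanning proteins that form the strands of the tight junction, the seal between neighbouring epithelial cells. Transcripts of 10 claudins of the renal tubule (Cldn1, Cldn2, Cldn3, Cldn4, Cldn6, Cldn7, Cldn8, Cldn10, Cldn12 and Cldn19), chosen by name, were followed in cultured mouse renal proximal tubulo-interstitial epithelial cells (RPTEC) among 36528 genes in the files. Of these 10 claudins, 7 had enough reads to be tested, more than 10 reads in at least 4 samples, as had 15521 genes in all. Cldn8, Cldn10 and Cldn19 did not.

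Primary RPTEC of C57BL/6 mice, bought from a vendor and cultured in EpiCM-a medium, were sampled in 6 groups of 3. The cells received vehicle (DMSO), the cytokine TWEAK at 100 ng/mL, or TWEAK at 100 ng/mL together with 3 µM of the compound NIK SMI1, and RNA was taken at 6 h or 24 h. TWEAK is a ligand of the TNF family, its receptor Fn14 is encoded by Tnfrsf12a, and NIK, the kinase that NIK SMI1 inhibits, is encoded by Map3k14 and drives the non-canonical NF-κB pathway. No group received NIK SMI1 without TWEAK, so the comparisons ask what TWEAK did to each claudin, what the compound did in its presence, and whether 6 h and 24 h differed.

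Claudins decide which ions pass between cells. Sealing claudins tighten the paracellular path and pore-forming claudins open it to cations, anions or water. The proximal tubule is a leaky epithelium in which Cldn2 forms a pore for cations and water and Cldn10 pores for ions, while Cldn3, Cldn4, Cldn7 and Cldn8 belong to the tighter distal nephron and collecting duct, and Cldn19 acts with Cldn16 in the thick ascending limb. Cldn6 is known from embryonic epithelia, Cldn1 from barrier epithelia and the parietal layer of Bowman's capsule, and Cldn12 from many tissues, with a part in paracellular calcium transport.

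Each sample held 18040966 to 51956444 counted reads, so that 3 reads, the smallest count given as a level, stood for 0.0577 to 0.166 CPM (reads of a gene per 1000000 counted reads) in a single sample. Markers of the proximal tubule in vivo were mostly absent. Slc22a8, Slc7a13 and Kap had no read in any sample, and Lrp2 did not pass 0.586 CPM. Slc5a2 (5.83 to 8.52 CPM) and Cubn (1.93 to 4.64 CPM) passed 1 CPM in all 18 samples. Ggt1 did so in 13 samples (0.325 to 2.11 CPM). At these low levels the label was not borne out by the list, and the cells are called RPTEC as the study names them. The 14 genes of the proximal list summed to 11.2 to 15.4 CPM over all samples. Of other cell types, the markers Umod (thick ascending limb), Emcn (endothelium) and Cd3e (T cells) had no read. Aqp2 (collecting duct), Upk3a (urothelium), Lyz2 (myeloid cells), Lum (fibroblasts) and Nphs1 (podocytes) stayed at or under 0.16 CPM. Other genes of some of these lists passed 1 CPM in all 18 samples. Among them were Upk1a (1.37 to 2.47 CPM) and Psca (3.26 to 16.1 CPM) for urothelium. Synpo (31.8 to 76.2 CPM) and Ncam1 (26.9 to 44.8 CPM) did so for podocytes and parietal epithelium. Over all samples the marker lists of the distal tubule and collecting duct summed to 1.17 to 2.1 CPM, of fibroblasts and pericytes to 13.4 to 19.8 CPM (mostly Col1a1 and Acta2), of leukocytes to 11.6 to 14.8 CPM (mostly Cd68) and of pancreas to 0.357 to 29.8 CPM. The 7 urothelial markers, nearly all of it the keratin Krt20, summed to 1294 to 1352 CPM in vehicle and 1019 to 1048 CPM in TWEAK at 6 h, and to 1038 to 1055 and 703 to 729 CPM at 24 h. The 6 podocyte and parietal markers, most of it Podxl, summed to 481 to 484 and 399.8 to 404 CPM at 6 h and to 446 to 454 and 317 to 325 CPM at 24 h. The 8 limb markers, mostly Bst1, summed to 45.4 to 48.2 and 39.7 to 41.6 CPM at 6 h and to 46.1 to 52.5 and 34.4 to 37.8 CPM at 24 h. The 7 endothelial markers, mostly Flt1, summed to 29.8 to 31.9 and 44.5 to 45.9 CPM at 6 h and to 23.2 to 25.1 and 21.5 to 22.2 CPM at 24 h. These last 4 sums differed between vehicle and TWEAK without overlap at both times, and their part in the claudin results was not tested. In whole cultures, fewer cells of a type and less RNA per cell cannot be told apart. Reads of the islet hormone gene Ins2 were found in all 9 samples at 6 h and the 3 vehicle samples at 24 h. They were also found in TWEAK samples 1 and 3 at 24 h, and in none of the other samples at 24 h. At 24 h the 12 pancreas markers summed to 14.7 to 20.1 CPM in vehicle. With TWEAK they summed to 0.792 to 13.5 CPM, and with NIK SMI1 added to 0.357 to 0.522 CPM. These ranges did not overlap, and the part of these reads in the claudin results was not tested.

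The RPTEC transcribed mainly claudins other than the pore-forming Cldn2 and Cldn10. Compared per length, as CPM per kilobase of exon, Cldn4 was highest in every group, followed by Cldn6, Cldn3, Cldn7, Cldn1 and Cldn12, and the pore-forming Cldn2 came far below. In vehicle at 6 h the means were 1437 ± 36.3 for Cldn4, 690.1 ± 12.1 for Cldn6, 357 ± 4.54 for Cldn3, 279 ± 8.22 for Cldn7, 128 ± 3.72 for Cldn1, 57.1 ± 1.26 for Cldn12 and 0.983 ± 0.161 for Cldn2 (CPM per kilobase, SD, n = 3). Within each group no samples of these 7 genes overlapped with those of the next gene in the order. Cldn8 and Cldn19 followed at the floor of the depth, and their samples overlapped in 4 of the 6 groups. Cldn10 had 0 reads in all 18 samples, which together allow a level of up to 0.00479 CPM.

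**Figure D1:**
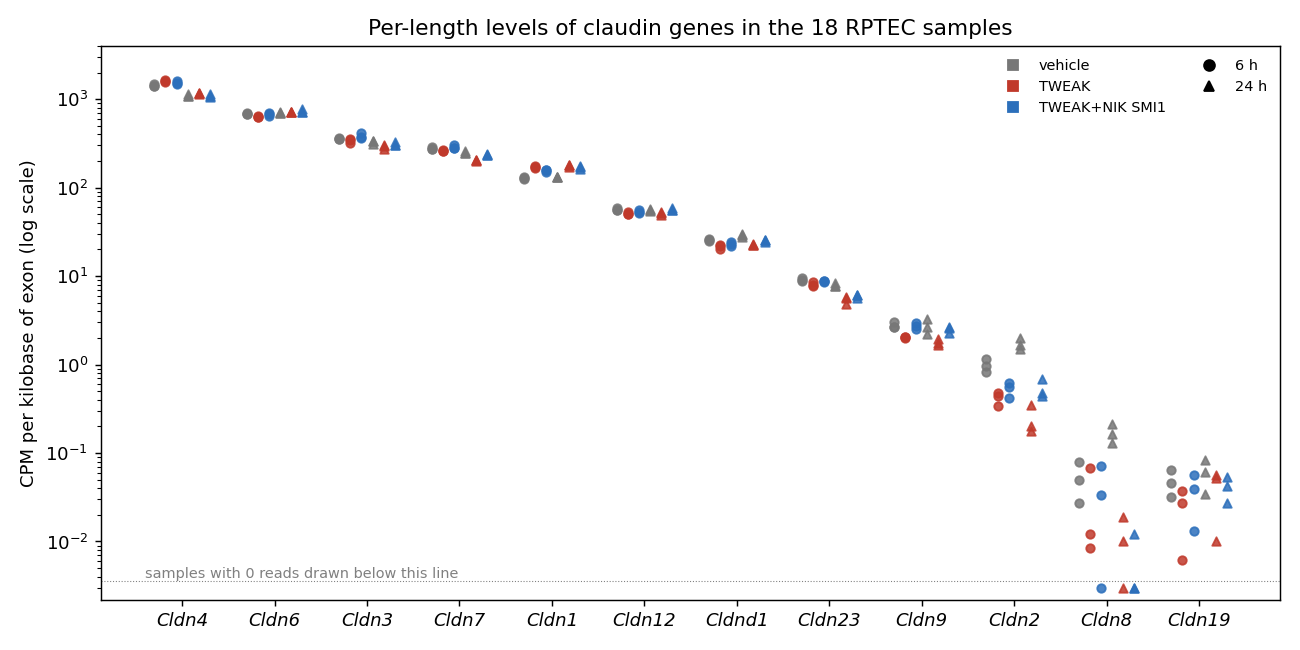
Per-length levels of the claudin genes (vertical axis, CPM per kilobase of exon, log scale) in each of the 18 samples, coloured by treatment, with circles for 6 h and triangles for 24 h; samples with 0 reads sit under the dotted line and Cldn10, with none, is left out. Cldn4 is highest in every sample, and Cldn2 lies more than an order of magnitude under Cldn12.

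The summed claudin level hardly moved with treatment. The sum ran over the 10 claudins and the 19 other genes of the family in the files, less Cldnd1 and Cldnd2. At 6 h it came to 2962 ± 55.4 CPM per kilobase in vehicle and 3072 ± 66.5 in TWEAK. It was 3109 ± 109 in the samples of 6 h that also had NIK SMI1. At 24 h it came to 2594 ± 48.9, 2615 ± 33.5 and 2624 ± 65.5 in the same order (SD, n = 3). Cldn4 alone made up 48.5% ± 0.372 of this sum in vehicle at 6 h and 42.7% ± 0.142 at 24 h, and 52.3% ± 0.22 and 44.7% ± 0.245 with TWEAK. The share of Cldn2 was 0.0664% ± 0.00865 in vehicle and 0.00931% ± 0.00348 with TWEAK at 24 h. The 3 groups of 24 h overlapped in the total, and at 6 h the lowest TWEAK sample (3028) lay just above the highest vehicle sample (3026). In no sample did Cldn2 pass 0.0755% of it.

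The genes lie apart in the genome, with some neighbours of note. By Entrez Gene identifier and chromosome they are Cldn1 (12737, chromosome 16), Cldn2 (12738, X), Cldn3 (12739, 5), Cldn4 (12740, 5), Cldn6 (54419, 17), Cldn7 (53624, 11), Cldn8 (54420, 16), Cldn10 (58187, 14), Cldn12 (64945, 5) and Cldn19 (242653, 4). Cldn3 and Cldn4 are adjacent protein-coding genes, and Cldn6 lies between Cldn9 and Tnfrsf12a, the gene of the TWEAK receptor. Tnfrsf12a itself was present at 454 to 487 CPM with TWEAK at 6 h and at 399 to 426 CPM at 24 h, with adjusted p = 0.652 and 0.905 against vehicle. The kits used did not keep strand, and exons of Cldn3 and Cldn19 overlap genes on the opposite strand (Wbscr25 and Gm12927), so reads of these pairs cannot be told apart.

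Promoter windows from RefSeq (GRCm38.p6), 250 bases before to 50 after a start site, were on hand for 9 of the 10 claudins and not for Cldn8. The windows of Cldn1 and Cldn2 are shown because these genes moved furthest up and down with TWEAK, and that of Cldn4 because it was the most abundant. They are chr16:26371790-26372089 (minus strand), chrX:139800558-139800857 (plus strand) and chr5:134946885-134947184 (minus strand), each written 5′ to 3′ along the gene. Capitals mark the E-box CAGGTG, the AP-1 motif TGANTCA and the TATA box TATAAA on either strand.
Cldn1: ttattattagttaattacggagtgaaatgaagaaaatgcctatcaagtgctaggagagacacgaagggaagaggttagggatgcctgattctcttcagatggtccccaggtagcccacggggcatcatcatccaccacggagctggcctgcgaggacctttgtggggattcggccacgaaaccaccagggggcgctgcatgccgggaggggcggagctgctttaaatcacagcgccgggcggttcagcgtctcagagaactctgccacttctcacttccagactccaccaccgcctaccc
Cldn2: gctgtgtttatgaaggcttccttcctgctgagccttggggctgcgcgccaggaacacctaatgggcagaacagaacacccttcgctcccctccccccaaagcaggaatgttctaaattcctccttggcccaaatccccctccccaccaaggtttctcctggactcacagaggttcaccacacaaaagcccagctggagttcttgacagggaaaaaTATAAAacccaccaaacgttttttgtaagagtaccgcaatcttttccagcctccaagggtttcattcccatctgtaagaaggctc
Cldn4: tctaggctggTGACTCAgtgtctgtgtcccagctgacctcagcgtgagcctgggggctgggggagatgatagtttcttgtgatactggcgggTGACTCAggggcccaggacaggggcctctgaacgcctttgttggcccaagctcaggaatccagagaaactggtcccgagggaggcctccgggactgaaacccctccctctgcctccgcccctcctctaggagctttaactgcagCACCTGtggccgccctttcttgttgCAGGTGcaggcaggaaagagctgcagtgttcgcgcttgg
The Cldn2 window held a TATA box 35 bases before the start and no other match. The Cldn4 window held 2 E-boxes, starting at bases -14 and 12, and 2 AP-1 motifs, at -240 and -158, counted from the start site. The Cldn1 window held none of these motifs. Among all 32851 windows of this length, 20.2% held the E-box, 7.81% the AP-1 motif and 13.6% the TATA box, and of the 27025 genes with a window 22.6%, 8.97% and 15.7% had 1 or more such windows. Over the 9 claudins the E-box was found in 4 (Cldn3, Cldn4, Cldn6 and Cldn7), the AP-1 motif in 1 (Cldn4) and a loose κB motif, GGGNNNNNCC, in 5 (Cldn6, Cldn7, Cldn10, Cldn12 and Cldn19), the last present in 50.8% of all windows and in 53.5% of genes. Motifs were counted one by one, so matches of different motifs may overlap, and a gene with several start sites was counted once if any of its windows matched. These are matches of letters and say nothing of binding.

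TWEAK lowered the pore-forming Cldn2 and raised the sealing Cldn1 at both times, while the abundant claudins moved by small amounts. At 6 h, 2 of the 7 tested claudins rose (Cldn1 and Cldn4) and 3 fell (Cldn2, Cldn6 and Cldn12). These counts stand beside 11.7% of all tested genes called higher and 12.0% called lower, at an adjusted p below 0.05 (edgeR quasi-likelihood test, Benjamini-Hochberg adjustment). At 24 h, 1 rose (Cldn1) and 4 fell (Cldn2, Cldn3, Cldn7 and Cldn12), beside 18.3% and 20.7% of all genes. Their median change (log2) was -0.087 at 6 h and -0.11 at 24 h, and that of all tested genes -0.0034 and -0.0055.

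Cldn2 was the claudin with the largest change. At 6 h the vehicle samples held 2.72, 3.15 and 3.77 CPM (84, 118 and 196 reads) and the TWEAK samples 1.58, 1.45 and 1.11 CPM (55, 73 and 42 reads). At 24 h the vehicle samples held 5.47, 4.92 and 6.54 CPM and the TWEAK samples 1.15, 0.578 and 0.669 CPM, the latter from 26, 27 and 28 reads. All TWEAK samples lay below all vehicle samples at each time. The log2 fold change was -1.22 ± 0.2 (SE) at 6 h (adjusted p = 2.13e-05), or 0.429 times the vehicle level, and -2.92 ± 0.22 at 24 h (adjusted p = 1.77e-11), or 0.132 times. Over all alternative settings it ran from -1.31 to -1.09 at 6 h and from -3.17 to -2.72 at 24 h. Vehicle cultures themselves gained Cldn2 between 6 h and 24 h, by 0.73 ± 0.17 on the log2 scale (adjusted p = 0.00209). TWEAK at 24 h was not tested against TWEAK at 6 h. The TWEAK effect at 24 h minus that at 6 h was -1.70 log2 units, with a 95% interval from -2.33 to -1.07 (adjusted p = 0.000373).

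Cldn1, a sealing claudin without which the barrier of the skin fails, rose. The vehicle samples held 429, 405 and 412 CPM at 6 h and the TWEAK samples 564, 540 and 549 CPM, in the order of samples 1 to 3. At 24 h the vehicle samples stood at 423 CPM each, and those with TWEAK at 579, 556 and 578 CPM. No TWEAK sample overlapped with a vehicle sample. The log2 fold change was 0.42 ± 0.035 at 6 h (adjusted p = 3.11e-10) and 0.43 ± 0.036 at 24 h (adjusted p = 1.07e-10), a 1.34-fold and a 1.35-fold rise. The difference between the effects at 24 h and 6 h was 0.012, with a 95% interval from -0.091 to 0.12.

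Cldn7, a claudin of the distal nephron and collecting duct, fell late. With vehicle at 24 h its samples held 362, 362 and 382 CPM, and with TWEAK 301, 300.4 and 293 CPM, all lower. The log2 fold change was -0.31 ± 0.034 (adjusted p = 3.53e-08), or 0.809 times the vehicle level. At 6 h the vehicle samples held 398, 419 and 399 CPM and the TWEAK samples 373, 373 and 389 CPM, again without overlap, and the log2 fold change was -0.087 ± 0.034 (adjusted p = 0.0624). That value passed the threshold without vehicle sample 3 (adjusted p = 0.0441), TWEAK sample 3 (0.0294) or TWEAK with NIK SMI1 sample 2 (0.0387), all of 6 h. The effect at 24 h minus that at 6 h was -0.22 ± 0.048 log2 units (adjusted p = 0.00304), and 3.24% of all tested genes had a higher and 5.67% a lower effect at 24 h by the same test. Of the 7 claudins, Cldn2 and Cldn7 alone passed it.

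Cldn4 and Cldn3, neighbouring genes whose proteins are receptors of Clostridium perfringens enterotoxin, moved little. Cldn4 held 2579.8, 2678 and 2553 CPM in vehicle and 2891, 2857 and 2980.1 CPM with TWEAK at 6 h, a log2 fold change of 0.17 ± 0.031 (adjusted p = 0.000111). At 24 h the samples held 1976, 1990.2 and 2055 CPM in vehicle and 2136, 2141 and 2076 CPM with TWEAK, again without overlap, and the log2 fold change was 0.077 ± 0.031 (adjusted p = 0.0538). The latter p fell to between 0.0351 and 0.0499 without vehicle sample 3 of either time, TWEAK sample 3 at 6 h, TWEAK with NIK SMI1 sample 2 or 3 at 6 h or sample 1 at 24 h. It was 0.0281 with no filter, 0.0448 with edgeR's filterByExpr and 0.0153 with 24 h fitted alone. Cldn3 held 391, 424 and 429 CPM in vehicle and 377, 379.95 and 349 CPM with TWEAK at 24 h, a log2 fold change of -0.17 ± 0.047 (adjusted p = 0.00506). At 6 h its 3 TWEAK samples (407, 433 and 452 CPM) overlapped with vehicle (445, 457 and 451 CPM), with a 95% interval of the log2 fold change from -0.15 to 0.04.

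Cldn6 and Cldn12 shifted by under 10%. Cldn6 held 1034, 1071 and 1048 CPM in vehicle and 955, 950.3 and 984 CPM with TWEAK at 6 h, a log2 fold change of -0.11 ± 0.032 (adjusted p = 0.00816). At 24 h its groups overlapped, at 1065 to 1084 and 1079 to 1095 CPM, with a 95% interval of the log2 fold change from -0.049 to 0.081. Cldn12 held 239, 239.8 and 249 CPM in vehicle and 223, 215 and 216 CPM with TWEAK at 6 h, a log2 fold change of -0.14 ± 0.037 (adjusted p = 0.0051). At 24 h the vehicle samples held 236, 229.8 and 241 CPM and the TWEAK samples 209, 218 and 227 CPM, with no overlap and a log2 fold change of -0.11 ± 0.037 (adjusted p = 0.0167). This last call was lost without vehicle sample 3 (adjusted p = 0.0732), TWEAK sample 1 (0.102) or TWEAK sample 2 (0.0519), all of 24 h.

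**Figure D2:**
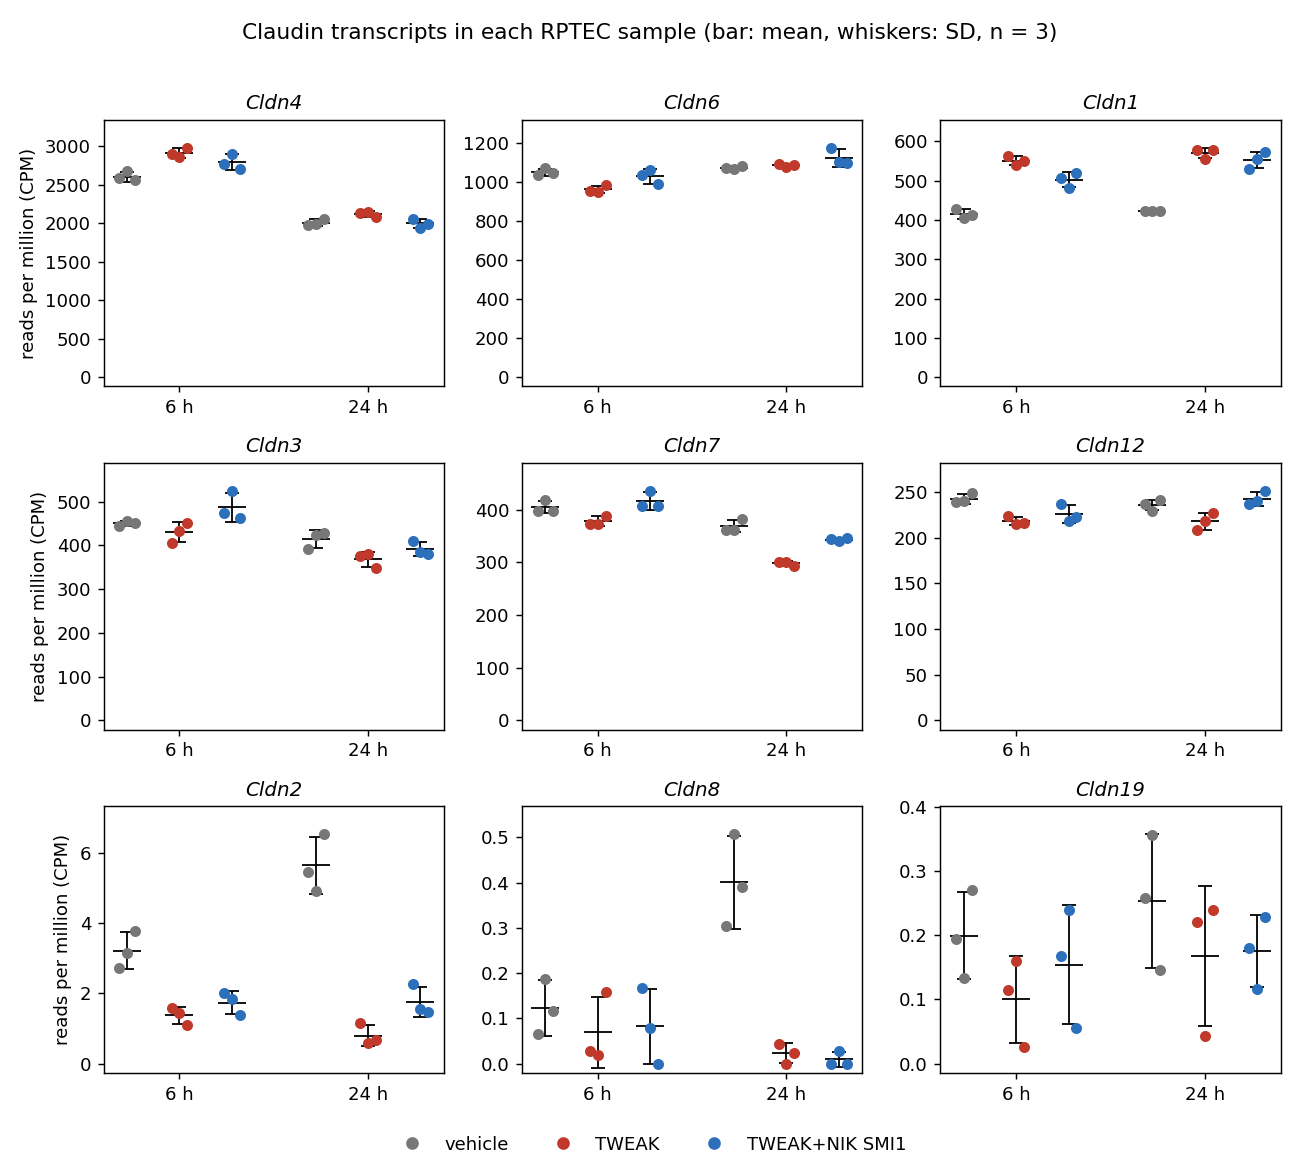
CPM (vertical axes, from 0) of 9 claudins in each sample, by time and treatment, with the mean as a bar and the SD as whiskers (n = 3); the scales differ between panels. Cldn2 and Cldn8 separate vehicle from TWEAK most widely at 24 h, and Cldn1 lies higher with TWEAK in every sample.

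Cldn8, a claudin of the collecting duct linked to chloride passage, was close to the detection floor and lower with TWEAK at 24 h. It was read 13, 10 and 8 times in the vehicle samples at 24 h, and 1, 0 and 1 times in the TWEAK samples, which were the deeper group in total. Relative to total reads the TWEAK group was 20.8-fold lower (95% counting interval 5.29 to 179, which covers counting error only). In a fit with filterByExpr the log2 fold change was -4.14 ± 0.84 (adjusted p = 0.00025). That filter kept Cldn8 only through the vehicle samples of 24 h, the only ones above 0.19 CPM. The p of that fit therefore gives no support of its own. In a fit without the read filter, which has no such selection, the log2 fold change was -4.16 ± 0.95 (adjusted p = 0.000112). At 6 h the vehicle samples held 2, 7 and 6 reads and the TWEAK samples 1, 1 and 6. The groups overlapped (adjusted p = 0.663 in the fit without the filter). Cldn19 was read 25 times in the 3 vehicle samples and 13 times in the 3 TWEAK samples at 6 h, and 21 and 17 times at 24 h, with adjusted p = 0.475 and 0.57. A difference of Cldn19 was thus not detectable at this depth. The summed pancreas markers were, like Cldn8, lower with TWEAK at 24 h, and their part in the Cldn8 result was not tested.

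With NIK SMI1 in the presence of TWEAK, Cldn2 was higher at 24 h and Cldn7 at both times than with TWEAK alone, and Cldn1 was lower at 6 h. The TWEAK samples are the same as in the comparison above, so the values of both comparisons are given side by side and their opposite signs are not independent. At 6 h, 2 claudins rose with the compound (Cldn3 and Cldn7) and 1 fell (Cldn1), beside 5.34% and 5.70% of all genes. At 24 h, 3 rose (Cldn2, Cldn7 and Cldn12) and 1 fell (Cldn4), beside 10.2% and 8.29%. The median of the 7 log2 fold changes was 0.091 at 6 h and 0.083 at 24 h, and that of all tested genes 0.0029 and 0.0083. Map3k14, the gene of the inhibited kinase, rose with TWEAK by 0.86 ± 0.055 and 0.95 ± 0.056 log2 units and by a further 0.43 ± 0.053 and 0.33 ± 0.052 with the compound at 6 h and 24 h.

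For Cldn2 the 24 h samples with NIK SMI1 held 2.26, 1.57 and 1.46 CPM, above the TWEAK samples (1.15, 0.578 and 0.669 CPM) and below the vehicle samples (4.92 to 6.54 CPM). The log2 fold change against TWEAK was 1.27 ± 0.25 (adjusted p = 0.000374), or 2.41-fold, and against vehicle it was still -1.65 ± 0.19 (adjusted p = 1.79e-07). Over the alternative settings the former ran from 1.03 to 1.63. At 6 h the samples with the compound held 2, 1.84 and 1.39 CPM and overlapped with TWEAK. The 6 h log2 fold change was 0.37 with a 95% interval from -0.1 to 0.84, and against vehicle it was -0.85 ± 0.21 (adjusted p = 0.00495).

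Cldn7 rose with the compound at both times. At 24 h its samples held 344, 339.9 and 346 CPM, above the TWEAK samples (293 to 301 CPM) and below the vehicle samples (362 to 382 CPM). The log2 fold change against TWEAK was 0.2 ± 0.034 (adjusted p = 7.9e-05). At 6 h they held 407, 436 and 407 CPM, a log2 fold change of 0.13 ± 0.034 (adjusted p = 0.00877). Cldn12 was 237, 239.8 and 251 CPM with the compound at 24 h, a log2 fold change of 0.15 ± 0.037 against TWEAK (adjusted p = 0.00447). Its samples overlapped with vehicle (229.8 to 241 CPM).

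Cldn1 behaved otherwise. At 24 h its samples with NIK SMI1 held 529.5, 556 and 572 CPM and overlapped with TWEAK, at a log2 fold change of -0.052 with a 95% interval from -0.12 to 0.021. Against vehicle Cldn1 was still higher by 0.38 ± 0.036 log2 units (adjusted p = 4.87e-09). At 6 h the samples held 507, 481 and 519 CPM, a log2 fold change of -0.14 ± 0.035 against TWEAK (adjusted p = 0.00883) and 0.28 ± 0.036 against vehicle (adjusted p = 1.89e-06). Cldn3 at 6 h held 474, 525 and 463 CPM with the compound, a log2 fold change of 0.17 ± 0.046 against TWEAK (adjusted p = 0.0135).

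The calls at 6 h rested on few samples. Without TWEAK with NIK SMI1 sample 2 of 6 h, 0 of the 7 claudins passed in edgeR (adjusted p = 0.0782 for Cldn1, 0.158 for Cldn3 and 0.0979 for Cldn7), while 4 (with Cldn4) had an unadjusted p below 0.05. Cldn3 was also lost without TWEAK sample 1 of 6 h (0.133), and Cldn7 without TWEAK sample 1 (0.0593) or 2 (0.0509) of 6 h. Cldn6, at 1037, 1063 and 989 CPM with the compound and above all TWEAK samples, had a log2 fold change of 0.091 ± 0.032 (adjusted p = 0.0669) and passed without TWEAK sample 3 at 6 h (0.0453), TWEAK with NIK SMI1 sample 3 at 6 h (0.00906) or sample 1 at 24 h (0.046). At 24 h the call of Cldn4 was marginal. Its samples with NIK SMI1 held 2054, 1940.1 and 1994 CPM, below all TWEAK samples, with a log2 fold change of -0.09 ± 0.031 (adjusted p = 0.0468). It was lost (adjusted p = 0.0507 to 0.193) without any 1 of the vehicle or TWEAK samples of 24 h, sample 2 or 3 with the compound at 24 h, TWEAK sample 2 at 6 h or sample 1 with the compound at 6 h, and also with DESeq2 size factors (0.0541). Without TWEAK samples 1 and 3 of 24 h, which held islet reads while the samples with the compound held none, and with the lone TWEAK sample left taken to vary like the other groups, the log2 fold changes of 24 h were -0.097 for Cldn4 (adjusted p = 0.227) and 0.16 for Cldn12 (adjusted p = 0.0577), and Cldn2 and Cldn7 kept their calls.

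**Figure D3:**
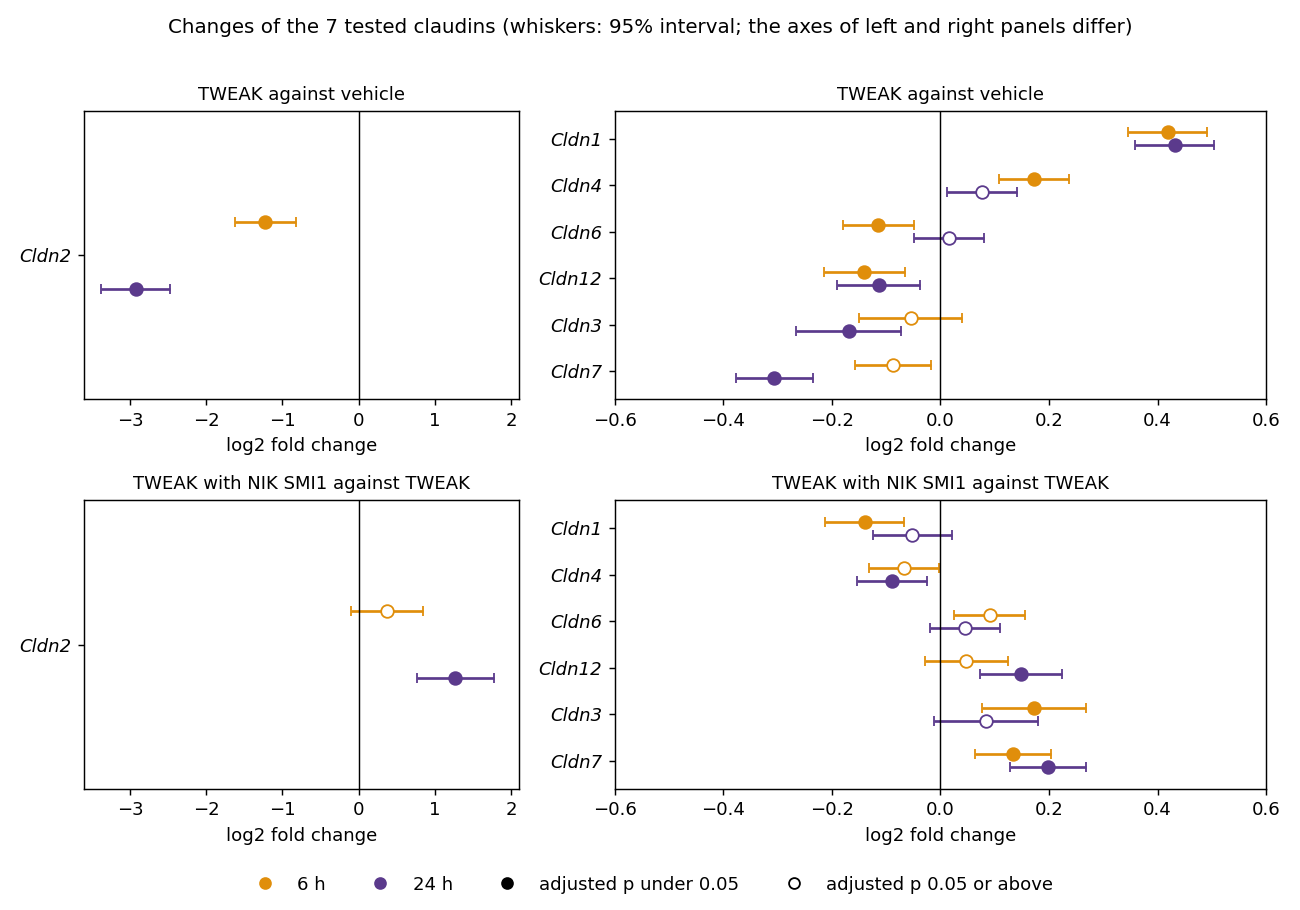
Log2 fold changes (horizontal axes) of the 7 tested claudins with 95% intervals at 6 h and 24 h, for TWEAK against vehicle (top) and TWEAK with NIK SMI1 against TWEAK (bottom); filled symbols have an adjusted p below 0.05, and Cldn2 has an axis of its own. Cldn2 moves from -1.22 to -2.92 with TWEAK, and by 1.27 in the other direction with the compound at 24 h, while the changes of the other claudins lie between -0.31 and 0.43.

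Set against vehicle, the cells with TWEAK and NIK SMI1 had 2 higher claudins (Cldn1 and Cldn4) and 1 lower (Cldn2) at 6 h, beside 7.23% and 6.70% of all genes, and 1 higher (Cldn1) and 2 lower (Cldn2 and Cldn7) at 24 h, beside 8.07% and 9.83%. The Cldn4 call at 6 h, 0.11 ± 0.031 on the log2 scale (adjusted p = 0.0241), was lost without vehicle sample 3 (0.102), or sample 1 (0.0514) or 2 (0.182) with the compound, and with 6 h fitted alone (0.0654). The Cldn7 call at 24 h, -0.11 ± 0.034 (adjusted p = 0.0281), was lost without vehicle sample 3 (0.161) or any 1 of the samples with the compound (0.0546 to 0.0809). Cldn3 at 6 h passed without sample 3 with the compound (0.0276) or with no filter (0.0108), and Cldn12 at 6 h without sample 1 (0.0301). Cldn8 was read once in the 3 samples with the compound at 24 h, 40.9-fold lower than in vehicle relative to total reads (95% counting interval 6.82 to 1669), and a rise against TWEAK was not detectable at this depth (adjusted p = 0.915 in the fit without the filter).

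Time in culture changed several claudins without any TWEAK. Between the vehicle samples of 6 h and 24 h, 1 of the 7 rose (Cldn2, above) and 4 fell, beside 15.5% and 14.4% of all genes. Cldn4 fell most, from 2553 to 2678 CPM to 1976 to 2055 CPM, a log2 fold change of -0.44 ± 0.031 (adjusted p = 1.36e-11). Cldn7 fell by 0.2 (adjusted p = 3.34e-05), Cldn3 fell by 0.19 (adjusted p = 0.00266) and Cldn12 fell by 0.11 (adjusted p = 0.0313) on the log2 scale. The call of Cldn12, whose groups overlapped, was lost without vehicle sample 1 (0.0514) or 3 (0.0994) of 6 h, vehicle sample 1 (0.0712) or 2 (0.129) of 24 h, or TWEAK sample 1 of 6 h (0.0518). Cldn8 went from 15 to 31 reads, a ratio of 3.00 relative to total reads with a 95% counting interval from 1.57 to 5.97. The adjusted p was 0.127 in the fit without the filter and 0.0475 in the fit with filterByExpr. The latter filter kept Cldn8 only through these vehicle samples of 24 h, so 0.0475 gives no support of its own. The groups did not overlap in CPM.

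The rest of the claudin family was sparse. Of the 19 other family genes in the files, 5 were tested, and of those Cldnd1, Cldn23 and Cldn9 had levels above 1 CPM. With TWEAK 2 of the 5 fell at 6 h (Cldnd1 and Cldn9), beside 12.0% of all tested genes, and 3 at 24 h (also Cldn23), beside 20.7%. Cldn9, the neighbour of Cldn6, held 3.18, 4.77 and 3.86 CPM in vehicle and 2.38, 2.8 and 2.53 CPM with TWEAK at 24 h, a log2 fold change of -0.56 ± 0.15 (adjusted p = 0.00312), and it rose by 0.46 ± 0.14 with the compound (adjusted p = 0.0214). At 24 h Cldnd1, a relative outside the classic claudins, had a log2 fold change of -0.35 ± 0.048 (adjusted p = 9.24e-07) and Cldn23 of -0.55 ± 0.075 (adjusted p = 9.98e-07).

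Among the other tight junction membrane proteins, 10 of the 14 listed genes were tested. With TWEAK 2 rose and 3 fell at 6 h, beside 11.7% and 12.0% of all genes, and 3 rose and 6 fell at 24 h, beside 18.3% and 20.7% (median log2 fold change -0.0039 and -0.18, and -0.0034 and -0.0055 over all genes). Ocln, the gene of occludin, fell from 116, 109.7 and 119.8 CPM to 83.8, 85 and 83.4 CPM at 24 h, a log2 fold change of -0.46 ± 0.041 (adjusted p = 5.44e-10). Ildr1, which encodes angulin-2 of the tricellular junction, had -0.8 ± 0.074 (adjusted p = 1.17e-09), and F11r, which encodes the adhesion molecule JAM-A, rose by 0.34 ± 0.03 (adjusted p = 4.29e-10). With NIK SMI1 at 24 h, 5 rose and 3 fell, beside 10.2% and 8.29% of all genes, among them Ocln with 0.23 ± 0.04 (adjusted p = 0.000101) and F11r with -0.17 ± 0.029 (adjusted p = 0.000117).

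The list of plaque scaffolds, which link junction proteins to the cytoskeleton, and of polarity proteins, which set up the apical and basal sides of the cell, was tested in full. Of these 28 genes, 4 rose and 7 fell with TWEAK at 6 h, beside 11.7% and 12.0% of all genes, and 8 rose and 11 fell at 24 h, beside 18.3% and 20.7% (median log2 fold change 0.0094 and -0.07). Tjp1, the gene of the scaffold ZO-1 that binds claudin tails, fell from 456, 465 and 457 CPM to 268, 274 and 291 CPM at 24 h, a log2 fold change of -0.73 ± 0.04 (adjusted p = 2.71e-14). Cgnl1 (paracingulin) had -0.69 ± 0.035 (adjusted p = 5.96e-15), and Pard6g, a polarity protein, rose by 0.91 ± 0.041 (adjusted p = 4.16e-16). With the compound at 24 h Tjp1 rose by 0.34 ± 0.04 (adjusted p = 2.84e-07), Cgnl1 by 0.3 ± 0.035 (adjusted p = 3.58e-07), and Pard6g had -0.33 ± 0.039 (adjusted p = 2.9e-07). At that time 7 of the 28 rose and 4 fell, beside 10.2% and 8.29%, and at 6 h 5 rose and 1 fell, beside 5.34% and 5.70%.

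Of 20 tested genes of the adherens junction and desmosome, 3 rose and 9 fell with TWEAK at 6 h, beside 11.7% and 12.0% of all genes, and 2 rose and 11 fell at 24 h, beside 18.3% and 20.7% (median -0.1 and -0.12). The kidney cadherin Cdh6 went from 139, 137 and 137 CPM to 61.4, 63.6 and 67.6 CPM at 24 h, a log2 fold change of -1.1 ± 0.05 (adjusted p = 4.16e-16). With NIK SMI1 at 24 h, 6 rose and 2 fell, beside 10.2% and 8.29%, among them Cdh6 with 0.51 ± 0.049 (adjusted p = 1.17e-08).

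Among 33 tested regulators of junction genes and of junction turnover, 9 rose and 12 fell with TWEAK at 6 h, beside 11.7% and 12.0% of all genes, and 9 rose and 18 fell at 24 h, beside 18.3% and 20.7% (median -0.14 and -0.28). Epcam, whose product binds and stabilizes Cldn1 and Cldn7, went from 653, 641 and 653 CPM to 1232, 1205 and 1207 CPM at 24 h, a log2 fold change of 0.9 ± 0.033 (adjusted p = 5.76e-18). Zeb1, a repressor of epithelial genes that binds E-boxes, went from 1.82, 2.13 and 2.25 CPM to 11.4, 11.2 and 11.3 CPM (2.48 ± 0.13, adjusted p = 7.03e-15). Of epithelial transcription factors, Elf3 had -1.29 ± 0.057 (adjusted p = 2.73e-16) and Foxa2 -1.93 ± 0.11 (adjusted p = 6.24e-14), while Tfcp2l1 rose by 0.62 ± 0.054 (adjusted p = 3.51e-10). With the compound at 24 h, 10 rose and 8 fell, beside 10.2% and 8.29%, among them Zeb1 with -1.5 ± 0.11 (adjusted p = 4.09e-11), at 3.99, 3.65 and 4.35 CPM, and Epcam with -0.46 ± 0.033 (adjusted p = 3.35e-11). Whether any of these genes acts on a claudin was not tested.

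**Figure D4:**
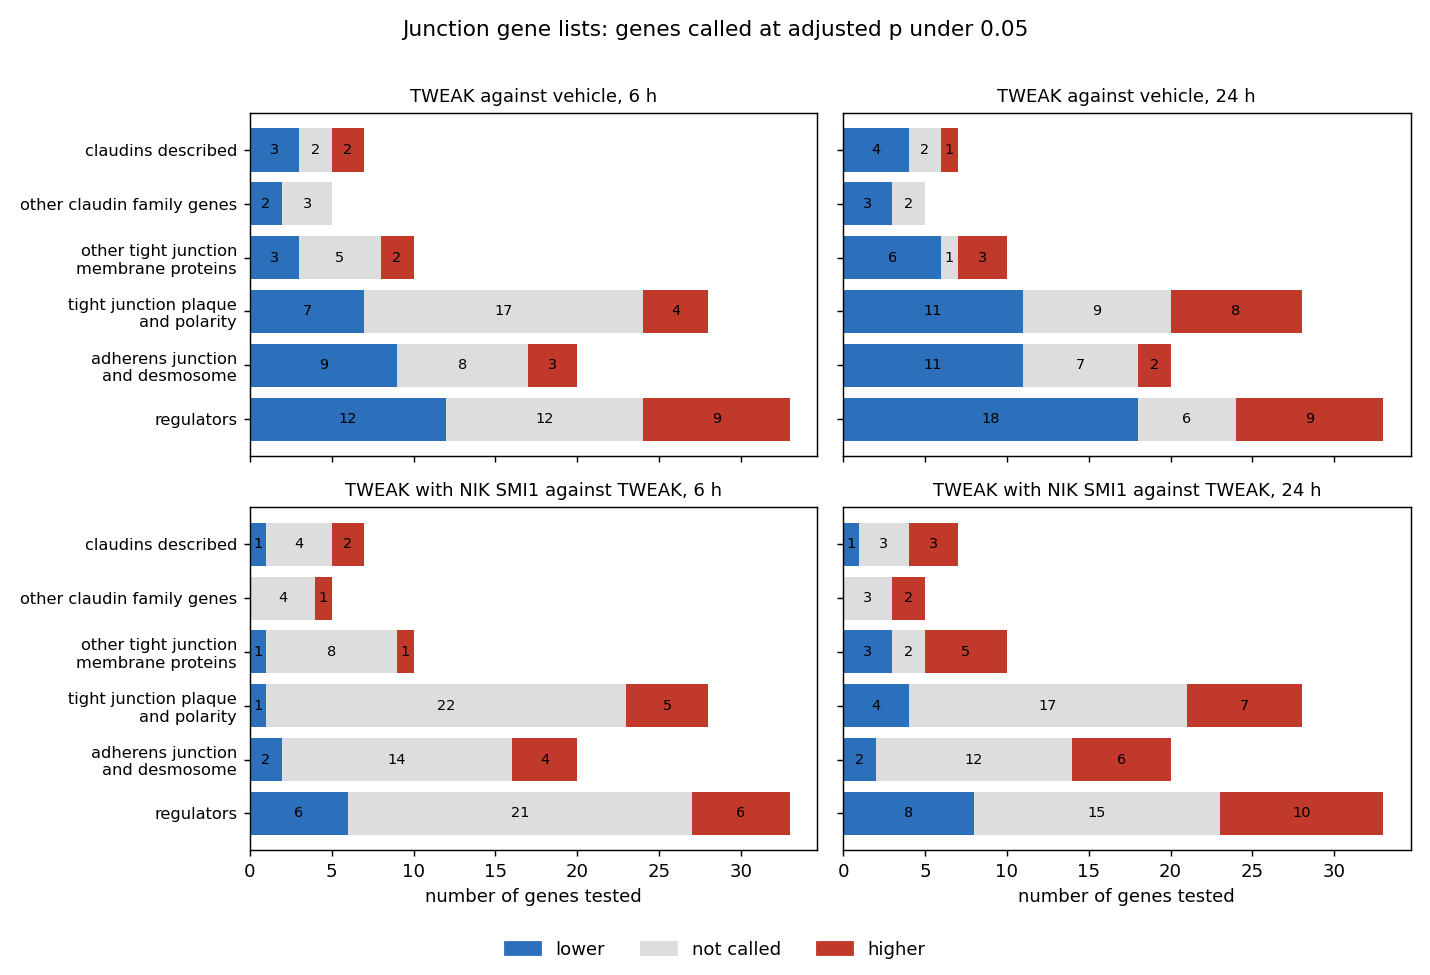
Number of tested genes (horizontal axis) called lower, not called or called higher at an adjusted p below 0.05 in 6 lists of junction genes, for TWEAK against vehicle (top) and TWEAK with NIK SMI1 against TWEAK (bottom). At 24 h TWEAK lowered 11 and raised 8 of 28 plaque and polarity genes, and lowered 18 and raised 9 of 33 regulators, beside 20.7% lower and 18.3% higher over all genes. NIK SMI1 raised 7 and lowered 4, and raised 10 and lowered 8, beside 10.2% and 8.29%.

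The genes whose levels followed a claudin most closely over the 18 samples are given as a description, since all samples share treatments and times. By Pearson's r of log2(CPM + 0.1) among genes of at least 1 CPM on average, Cldn2 was followed most closely by Rap1gap (0.982), the carboxypeptidase M gene Cpm (0.962) and the nuclear receptor gene Pparg (0.962). Pparg stood at 4.19 ± 0.221 CPM in vehicle, 1.11 ± 0.262 CPM with TWEAK and 1.57 ± 0.158 CPM with the compound at 24 h (SD, n = 3). Cldn1 was followed most closely by Marcks (0.98), Nudcd1 (0.974) and the anion transporter gene Slc26a1 (0.974), which held 7.35 ± 0.584, 45.8 ± 1.04 and 26.3 ± 0.644 CPM in the same groups. For Cldn7 the closest were Prss22 (0.981), Fhl2 (0.973) and Mgst3 (0.972).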

How the data were processed

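RNASeq of 18 RPTEC samples was analysed from the deposited tables. Per the study's methods and the labels, the authors prepared unstranded TruSeq libraries, aligned reads with GSNAP through HTSeqGenie to NCBI build 37, and deposited raw counts of uniquely aligned exonic reads per gene, so reads that matched several places were not counted. The authors also deposited RPKM values and the exonic length of each gene. RPKM values were not used here. The submitters' processing notes name DESeq2, with no version. Read length and sequencer are given differently in the labels and the methods.

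Counts were tested in edgeR 4.0.16 under R 4.3.3 (TMM factors, estimateDisp, glmQLFit, glmQLFTest) over all 18 samples as 6 groups, for genes that passed the study's filter (over 10 reads in 4 or more samples). Benjamini-Hochberg adjustment ran over all 15521 genes, and calls were made below 0.05. Standard errors were derived from the F statistic. CPM is the reads of a gene divided by all counted reads of the sample, times 1000000. Total counts of 18040966 to 51956444 per sample set the precision of low genes. Counting intervals and floors cover counting error only. Symbols came from RefSeq (GRCm38.p6) by Entrez identifier for 31049 of 36528 genes. Samples were numbered 1 to 3 in a group for naming only, nothing says that they came from separate animals or preparations, and the p-values measure the spread between these samples. The scripts were tested on simulated data.

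The claudins and all gene lists were chosen with earlier results of these data known. Named were the 10 claudins, at most the 3 called genes of lowest adjusted p per direction, list and comparison, and, for Cldn1, Cldn2 and Cldn7, which had the largest called changes with TWEAK at 24 h, the 3 genes of closest pattern. Alternatives were DESeq2 1.42.0 as test or as source of size factors, other filters, fits per time point, a 1.5-fold minimum, leaving out each sample, and leaving out samples with islet reads.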

Additional observations from a re-analysis of the deposited data

Results flagged for a closer look

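A difference between time points stood out for 3 genes of the claudin family. The test was of the TWEAK effect at 24 h minus the TWEAK effect at 6 h in the same edgeR fit. These were 2 of the 7 tested claudins and 1 of the 5 other tested family genes, all lower. Over all tested genes 3.24% were called higher and 5.67% lower by this test. The difference was -1.701 log2 units for Cldn2 (SE 0.3069, adjusted p = 0.0003734), -0.2185 for Cldn7 (SE 0.04798, adjusted p = 0.003036) and -0.3764 for Cldn23 (SE 0.1002, adjusted p = 0.01542). In each of the 3 genes all TWEAK samples lay below all vehicle samples of the same time, at 6 h as at 24 h. The share of all tested genes that separate in this way was not computed. Since the 3 genes were picked by a lower effect at 24 h, their separation at 24 h is partly set by that choice.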

How the results depend on the processing

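No paired analysis was possible because the labels carry no replicate numbers that could pair samples across groups. Below, NIK SMI1 against vehicle or against TWEAK is short for TWEAK with NIK SMI1 against that group. No group had the compound alone. Each of 56 log2 fold changes of the 7 tested claudins was recomputed under up to 24 alternatives, 1281 values in all. Of these, 1219 kept direction and side of the threshold, 35 lost a call, 21 gained one and 6 turned direction, none of them a called change. The 6 were Cldn6 for NIK SMI1 against vehicle at 6 h (0.01018), Cldn4 for the same at 24 h (0.003702 and 0.004277), and, for the TWEAK effect at 24 h minus 6 h, Cldn1 (-0.02088 and -0.004007) and Cldn12 (-0.005769), each in fits without 1 sample. Over all such fits these 4 values ran from -0.04978 to 0.01018, from -0.02901 to 0.004277, from -0.02088 to 0.03611 and from -0.005769 to 0.05393.

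With a minimum change of 1.5-fold, only Cldn2 stayed called where any claudin did. Shares of all tested genes were not computed at this minimum or for the alternatives below. The counts of this paragraph therefore have no background beside them. The count fell from 5 to 1 for TWEAK against vehicle at 6 h and at 24 h, from 3 to 0 and from 4 to 1 for NIK SMI1 against TWEAK, from 3 to 1 at both times for NIK SMI1 against vehicle, from 5 to 1 for time in vehicle, and from 2 to 1 for the difference between TWEAK effects. Without the samples with islet reads the count of NIK SMI1 against TWEAK at 24 h fell from 4 to 2, and for the other comparisons this was not run, because a group would have been left empty. Leaving out each sample in turn gave, in the same order of comparisons, 5 to 6, 4 to 6, 0 to 4, 3 to 4, 2 to 4, 2 to 3, 4 to 5 and 2 to 3 calls. No filter and filterByExpr each raised the count of TWEAK against vehicle at 24 h from 5 to 7 (with Cldn4 and Cldn8) and of NIK SMI1 against vehicle at 24 h from 3 to 4 (with Cldn8). No filter raised that of NIK SMI1 against vehicle at 6 h from 3 to 4, and filterByExpr that of time in vehicle from 5 to 6 (with Cldn8). Since filterByExpr kept Cldn8 only through its vehicle samples of 24 h, the calls of Cldn8 under that filter give no support of their own. DESeq2 size factors lowered NIK SMI1 against TWEAK at 24 h from 4 to 3. Each time point alone gave 6 for TWEAK against vehicle at 24 h and 2 for NIK SMI1 against vehicle at 6 h. Cldn8, Cldn10 and Cldn19 lie at the floor of the depth, and no statement on their smaller differences can be made.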
